A study of Xenopus laevis with 4 samples.

Results

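The genes described here encode the proteins that copy DNA: the factors that mark and license replication origins, the MCM helicase and its activators, the DNA polymerases and primase, the sliding clamp and its loader, the single-strand binding protein, the enzymes that join Okazaki fragments, and ribonucleotide reductase. Their probe sets were picked by a rule on gene symbols. The rule uses no measured value, but it was chosen with earlier results of these data known. With the ending .L or .S removed, a symbol had to begin with mcm, orc, rfc, gins, pola, pold, pole, prim, rpa or rrm followed by a digit, or be pcna, gmnn, cdt1, cdc6, cdc45, fen1 or lig1. This gave 60 probe sets for 54 symbols and 46 genes, of 15491 probe sets that are not controls and 9304 that carry a single symbol. The frog Xenopus laevis is an allotetraploid, so many genes have a copy on each subgenome, long (.L) or short (.S), and 43 of the 60 probe sets belonged to .L copies. The choice left out pole.L, the catalytic subunit of polymerase epsilon, whose symbol has no digit, and a probe set shared by pcna.L and pcna.S; both are given beside their relatives.

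RNA of whole oocytes was compared with RNA of isolated vegetal cortices on 4 Affymetrix arrays, 2 per group. All oocytes were full-grown, at stage VI, and had been freed with collagenase; the labels name no strain, age or genotype. Cortices were dissected by hand from bisected oocytes and pooled in batches. Intact oocytes of the same female served as controls, and each replicate came from another female. Arrays with the same replicate number are called those of the first or the second female here. That pairing was assumed from the titles, and the description of cortex replicate 2 carries the numbers of cortex replicate 1. A value is the MAS5 signal of a probe set, a linear intensity that was scaled to the same trimmed mean on every array, so a difference is one of share in the RNA pool, and less of an RNA in the cortex cannot be told apart from more of the other RNAs there. All 4 arrays come from oocytes and none from an embryo, so the later use of these RNAs in cleavage is background and was not measured.

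A chromosome is copied once per cycle because origins are licensed before S phase and fired within it. The origin recognition complex, Cdc6 and Cdt1 load the MCM helicase onto DNA, geminin blocks Cdt1 afterwards, and Cdc45 and the GINS complex turn the loaded helicase on. A stage VI oocyte is arrested in meiotic prophase and does not replicate its chromosomes, while the fertilized egg of Xenopus goes through rapid cleavage cycles that rely on stored maternal RNA and protein. In Xenopus, Cdc6 protein is made from stored RNA during meiotic maturation, and the egg then becomes able to replicate DNA. The oocyte nucleus lies in the animal hemisphere, away from the vegetal cortex, which is a thin layer of cytoplasm and cytoskeleton that anchors germ plasm and patterning RNAs.

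RNAs known from the vegetal cortex were higher on the arrays labelled cortex. Of their 12 tested probe sets, such as those of nanos1, dazl and vegt, 11 were called higher in cortices by limma. Over all tested probe sets 3.31% were. The summed signal of the 12 came to 59941 and 67384 in whole oocytes and to 421196 and 374280 in the cortices. The marker lists were drawn up with earlier results of these data known, so they are no independent check of the labels. The 12 probe sets of oocyte genes, such as zp2, npm2 and ccnb1, had summed signals between 148612 and 173299 on all 4 arrays, and 0 of them were called. Single members went either way. zp2.L had 5747 and 5238 in whole oocytes and 21318 and 11103 in cortices (log2 change 1.48 ± 0.37, adjusted p = 0.0892 by limma). zp4.S was higher in the cortex in both replicate pairs (0.59 and 0.68), and npm2.S was lower in both (-0.33 and -0.46). Markers of follicle, blood and liver cells were read as a check, since the collagenase step is meant to remove the follicle layer. The 18 probe sets of follicle and stromal genes summed to 28073 and 26377 in whole oocytes and to 24974 and 35097 in cortices, and most of each sum was fn1.S. Of the 5 that were bright enough to test, 4 were fn1.S. The other was vim.L, with 491 and 520 in whole oocytes and 479 and 569 in cortices. The rest, such as those of col1a1, fshr and lum, were too dim to test. The 6 blood probe sets summed to between 1328 and 3026, and the 13 yolk precursor and liver probe sets to between 271 and 415. In all 3 lists the sum was lowest in vegetal cortex replicate 1 and highest in vegetal cortex replicate 2. In the follicle list this order is largely that of fn1.S. Its brightest probe set alone had 14285 and 13428 in whole oocytes and 12892 and 18394 in cortices. Only 2 of the blood probe sets and 0 of the liver probe sets were bright enough to test. The part of such cells in the replication signals was not tested.

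No replication probe set differed between cortex and whole oocyte by the test, and most lay slightly lower in the cortex. Only signals averaging 271.5 or more over the arrays were tested, which kept 52 of the 60 replication probe sets and 9295 in all. Limma called 0 of the 52 as higher and 0 as lower at an adjusted p under 0.05, where 3.31% of all tested probe sets were called higher and 0% lower. Before adjustment, p was under 0.05 for 0 of the 52 on the higher side, against 8.02% of all, and for 1 on the lower side, gins1.S, against 4.62% of all. The lowest adjusted p among the 52 was 0.381. With 2 arrays per group the test reaches large changes only: the smallest change called over the whole table was 1.29 on the log2 scale, and a replication probe set of median standard error (0.36) would have needed 1.65.

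The median log2 change of the 52 was -0.44, beside -0.20 for all tested probe sets, which places it 0.23 lower on the log2 scale. It was -0.33 in the first female and -0.37 in the second, beside -0.27 and -0.12 for all tested probe sets. Without vegetal cortex replicate 2 the gap shrank to 0.080 (median -0.32 against -0.24), so most of its size rests on that array. Log2 changes below 0 were found for 41 of 52, or 78.8%, against 65.7% of all tested probe sets. Changes below 0 in both females were found for 33, or 63.5%, against 47% of all. Both cortex arrays lay below both whole oocyte arrays for 22 of 52, or 42.3%, where 31.8% of all tested probe sets did so. The reverse held for 3 (the dimmer of the rfc3.L probe sets, mcm7.L and pole4.L), or 5.77%, against 14.7% of all. No replication probe set was 2-fold lower in both females or 2-fold higher in both, where 0.549% and 5.61% of all tested probe sets were.

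**Figure D1:**
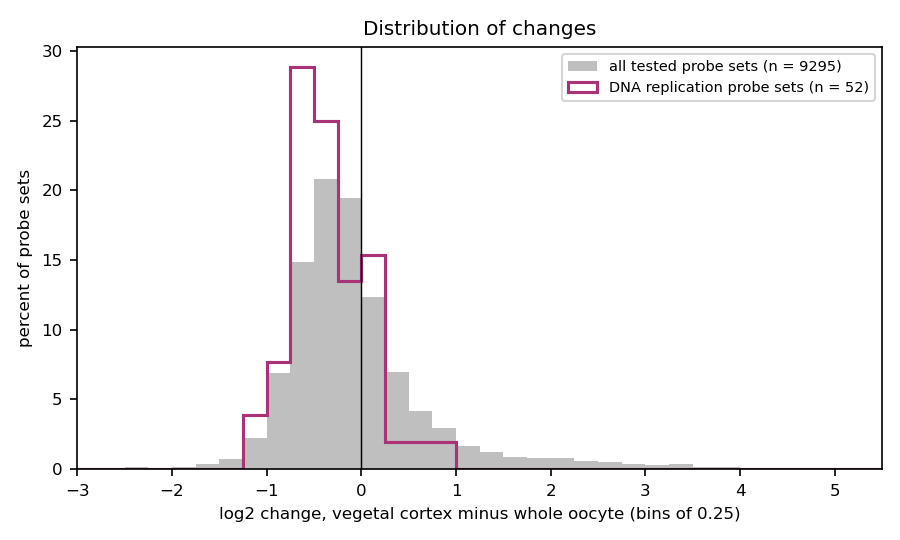
Histogram of log2 changes (vegetal cortex minus whole oocyte, bins of 0.25) as the percent of probe sets in each bin, for all 9295 tested probe sets (grey) and the 52 tested replication probe sets (outline). The replication probe sets lie between -1.17 and 0.80 and have none of the long tail of increases that the grey bars show.

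The middle 50% of the replication changes lay between -0.56 and -0.10, against -0.51 and 0.17 for all tested probe sets. The limma intervals say how large a change the arrays leave room for. For 14 of the 52, or 26.9%, the 95% interval lay wholly within a 2-fold change in either direction, where 12.9% of all tested probe sets had such an interval. The median standard error was 0.36 for the replication probe sets and 0.40 for all, and its part in this share was not tested. With the replicate number as a block in the fit, 17 of the 52 had such an interval, against 27.5% of all tested probe sets. With quantile normalization 9 of the 52 did, against 13.0% of all. The 14 were probe sets of cdc6.L, cdc6.S, cdt1.L, gmnn.L, gmnn.S, mcm3.L, mcm7.L, mcm7.S, mcm8.L, cdc45.L, pole4.L, pcna.L, rrm1.L and rrm2.2.L. The cdt1.L one was the brighter of its probe sets by mean signal, and the rrm1.L one the dimmer. A 2-fold increase was within the interval of 3 probe sets (the dimmer rfc3.L, fen1.S and rrm2b.S), or 5.77%, against 33.2% of all. A 2-fold decrease was within the interval of 35, or 67.3%, against 60.4%. With either whole oocyte array left out, 0 of the 52 had an interval within a 2-fold change, and the share over all tested probe sets was also near 0 (0.194% and 0.161%), where the spread was that of the cortex pair alone.

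**Figure D2:**
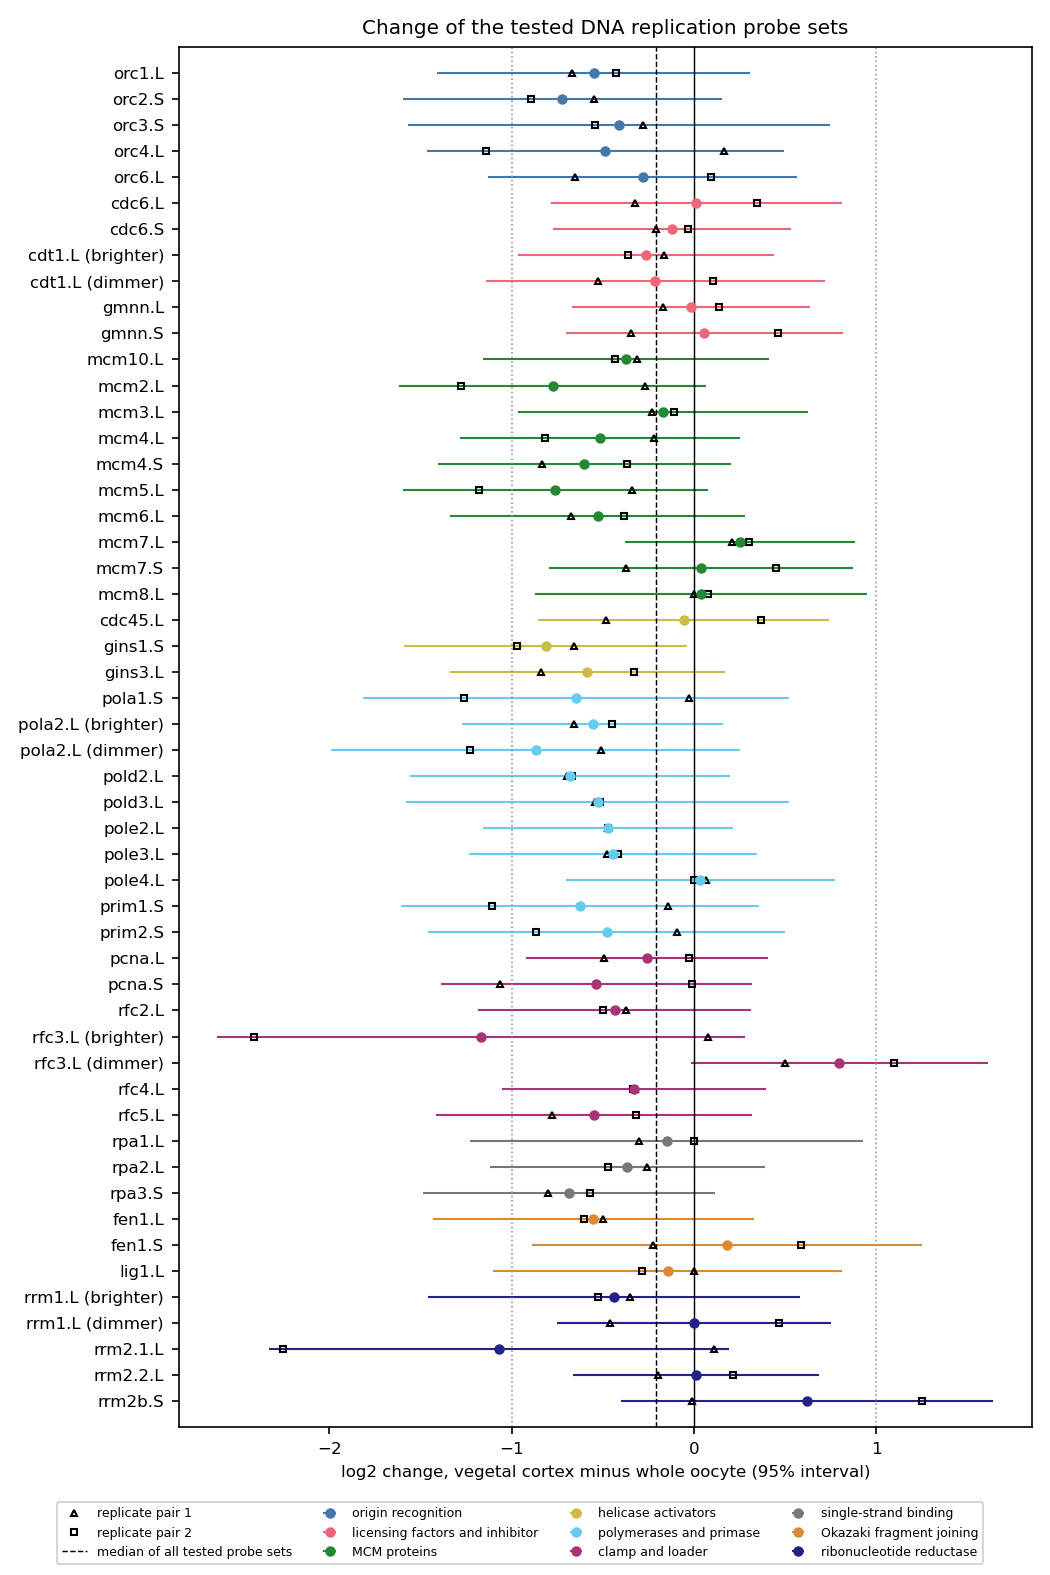
Log2 change (vegetal cortex minus whole oocyte) of the 52 tested replication probe sets with limma's 95% interval, grouped by role; open triangles and squares give the change within the first and the second female, the dashed line is the median of all tested probe sets (-0.20) and dotted lines mark a 2-fold change. The middle 50% of points lie between -0.56 and -0.10, and the 6 licensing probe sets between -0.26 and 0.058. Where a symbol has 2 probe sets, they are named brighter and dimmer by mean signal.

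The origin recognition complex binds origins and starts helicase loading. All 6 subunits were on the array, and 5 of their 7 probe sets were tested. All 5 had a log2 change below 0 (median -0.49), where 65.7% of all tested probe sets did. Without vegetal cortex replicate 2, 3 of the 5 were below 0 (median -0.32, beside -0.24 for all). Without whole oocyte replicate 1, 4 were (median -0.20, beside -0.18 for all). All 5 stayed below 0 without whole oocyte replicate 2 or vegetal cortex replicate 1 (medians -0.62 and -0.79). With all 4 arrays none was called by limma (lowest adjusted p = 0.476). For this and each later role, 3.31% of all tested probe sets were called higher and 0% lower. orc2.S was the lowest, with 989 and 1143 in the whole oocytes of the first and second female and 669 and 606 in their cortices (values are given in this order throughout). Both cortices were below both whole oocytes, and the log2 change was -0.72 ± 0.38 (SE, n = 2 per group; adjusted p = 0.476). The brighter orc6.L probe set was the highest of those tested, with 2158 and 1752 in whole oocytes and 1365 and 1869 in cortices. Its groups overlapped, and its log2 change was -0.28 ± 0.37 (adjusted p = 0.766). Those of orc1.L, orc3.S and orc4.L lay between these, at -0.55, -0.41 and -0.49. orc4.L, which had 2196 and 2747 in whole oocytes, lay between these in cortex replicate 1 (2471) and below them in cortex replicate 2 (1234), so its change was 0.17 in the first female and -1.14 in the second.

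The licensing factors and their inhibitor had log2 changes near 0 under the deposited scaling. All 6 probe sets were tested, and their changes lay between -0.26 and 0.058 (median -0.067). Of the 6 intervals 5 excluded a 2-fold change in either direction, where 12.9% of all tested probe sets had such an interval. With quantile normalization all 6 were below 0, from -0.51 to -0.15 (median -0.30). The median was 0.27 without vegetal cortex replicate 1 and -0.35 without vegetal cortex replicate 2. Cdc6 is an ATPase that recruits the helicase together with the origin recognition complex. cdc6.S had 11917 and 10273 in whole oocytes and 10310 and 10064 in cortices, an overlap in which only whole oocyte replicate 1 stood above the rest (log2 change -0.12, interval -0.77 to 0.53). cdc6.L was at 0.014 (interval -0.78 to 0.81), with -0.32 in the first female and 0.35 in the second.

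Cdt1 escorts the helicase to the origin. The brighter of its probe sets, all for cdt1.L, had 11352 and 15856 in whole oocytes and 10129 and 12326 in cortices. The cortex value was the lower one in each female, by 0.16 and 0.36 on the log2 scale (log2 change -0.26, interval -0.97 to 0.44), although the groups overlapped. The dimmer cdt1.L probe set had a like change of -0.21 with a wider interval (-1.14 to 0.72), and was the licensing probe set whose interval reached a 2-fold decrease.

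Geminin binds Cdt1 and stops a second round of licensing. gmnn.L had 21003 and 24495 in whole oocytes and 18682 and 26935 in cortices, so the cortices were both the lowest and the highest array (log2 change -0.016, interval -0.67 to 0.64), and with quantile normalization the change was -0.50. gmnn.S had 12835 and 12451 in whole oocytes and 10087 and 17176 in cortices, again with the cortices at both ends (log2 change 0.058, interval -0.70 to 0.82). For both copies the cortex of the second female was the higher cortex and that of the first female the lower.

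The MCM helicase is a ring of 6 subunits, Mcm2 to Mcm7, and unwinds DNA at the fork. Among the tested probe sets of these subunits, the 6 for mcm2 to mcm6 had log2 changes below 0 in both females, where 47% of all tested probe sets did. mcm7.L was above 0 in both females, while mcm7.S was at -0.37 in the first and 0.45 in the second. None was called, and the difference between mcm7 and the other subunits was not tested. mcm2.L was the lowest, with 8137 and 9161 in whole oocytes and 6751 and 3763 in cortices. Both cortices lay below both whole oocytes, the second one by far the more (log2 change -0.77 ± 0.37, adjusted p = 0.434; -0.27 and -1.28 in the females).

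mcm5.L behaved alike, with 7964 and 8040 in whole oocytes and 6289 and 3541 in cortices (log2 change -0.76 ± 0.36, adjusted p = 0.44). Both cortices were again below both whole oocytes, and cortex replicate 2 was the lowest. mcm4.L had 5068 and 5739 in whole oocytes and 4351 and 3256 in cortices, with no overlap and a log2 change of -0.52 ± 0.33. mcm6.L had 2582 and 2045 in whole oocytes and 1611 and 1567 in cortices, also without overlap (log2 change -0.53 ± 0.35). mcm6.L is listed in the gene table under the older name mmcm6, for the maternal form of Mcm6 in Xenopus. mcm3.L had 5175 and 6838 in whole oocytes and 4414 and 6351 in cortices. Each cortex was a little below its own female's whole oocytes, but the groups overlapped (log2 change -0.17, interval -0.96 to 0.63).

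mcm7.L had 11649 and 10811 in whole oocytes and 13452 and 13328 in cortices. Both cortices were above both whole oocytes by a small margin that did not pass (log2 change 0.25 ± 0.27, adjusted p = 0.709), and with quantile normalization the change was -0.014. mcm7.S had 3314 and 2751 in whole oocytes and 2556 and 3772 in cortices, where the cortices held both the lowest and the highest value (log2 change 0.040, interval -0.79 to 0.87). Of the MCM proteins outside the ring, mcm10.L, which helps to activate the helicase, was at -0.37 with no overlap between the groups. mcm8.L, of a helicase that acts in recombination repair, was at 0.040 (interval -0.87 to 0.95).

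**Figure D3:**
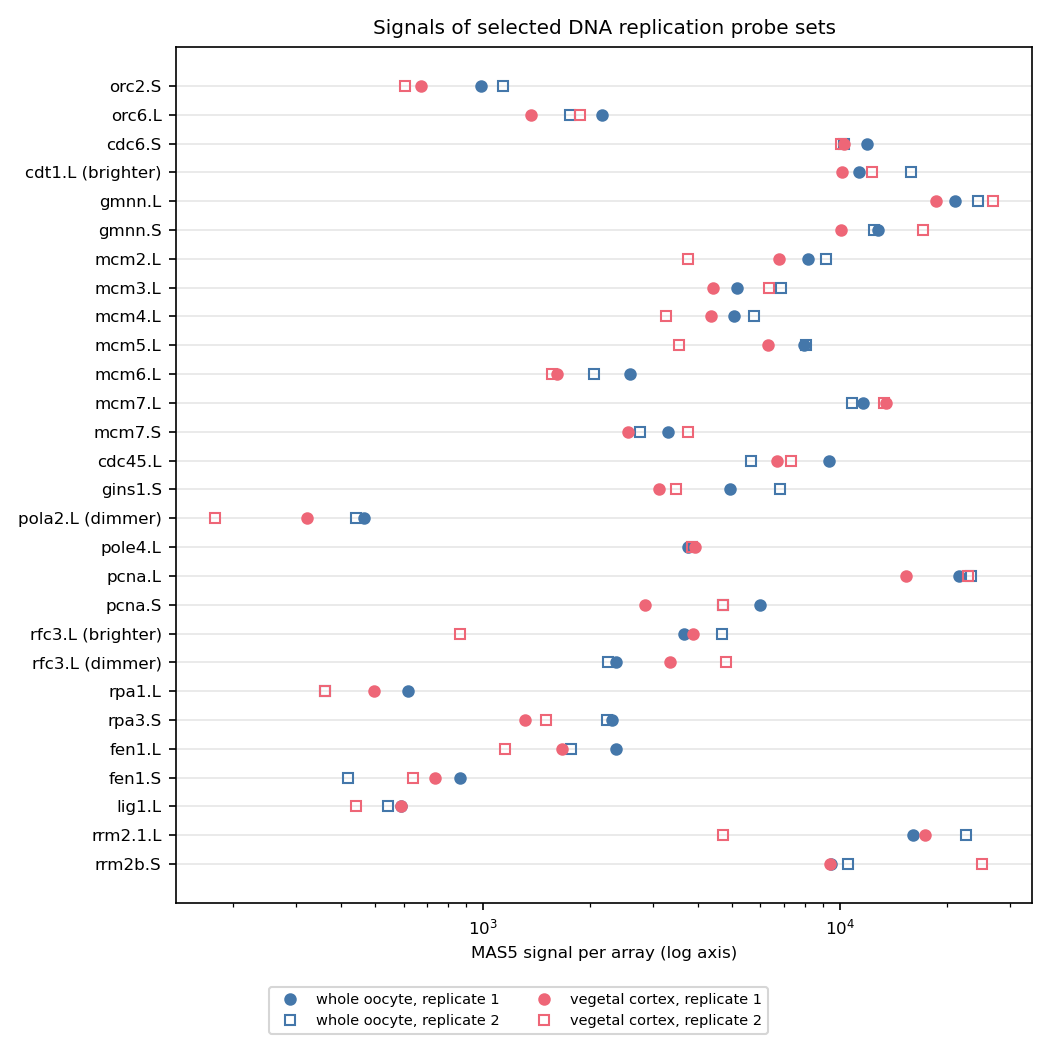
MAS5 signal (log axis) of 28 replication probe sets on each of the 4 arrays; blue marks whole oocytes, red vegetal cortices, filled circles the first female and open squares the second. The red marks of mcm2.L, mcm4.L, mcm5.L, mcm6.L, gins1.S and rpa3.S lie left of the blue ones, those of mcm7.L and of the dimmer rfc3.L probe set lie right, and the open red squares of rrm2.1.L (4713) and of the brighter rfc3.L probe set (863) stand far from their other arrays.

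Cdc45 and the 4 GINS subunits join the loaded helicase at S phase. gins1.S had the lowest unadjusted p of all replication probe sets (0.0425, adjusted p = 0.381 by limma). Its signals were 4926 and 6823 in whole oocytes and 3116 and 3476 in cortices, and both cortices lay below both whole oocytes (log2 change -0.81 ± 0.34, a ratio of 0.569). gins3.L also had no overlap, with 5947 and 4975 in whole oocytes and 3322 and 3952 in cortices (log2 change -0.58 ± 0.33). cdc45.L overlapped, with 9338 and 5657 in whole oocytes and 6687 and 7308 in cortices. Its lowest and highest values were both whole oocytes, and its change was -0.056 (interval -0.85 to 0.74). gins2.L and gins4.L were too dim to test.

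The polymerases and primase make the new strands: polymerase alpha with primase starts them, and polymerases delta and epsilon extend them. All 10 probe sets were tested, and 9 had log2 changes below 0 in both females, where 47% of all tested probe sets did. The median was -0.54, and none was called (lowest adjusted p = 0.495). Without vegetal cortex replicate 1 the median was -0.94, beside -0.15 for all tested probe sets. Without vegetal cortex replicate 2 the median was -0.27, beside -0.24 for all. The lowest was the dimmer probe set of pola2.L, a subunit of polymerase alpha, with 466 and 441 in whole oocytes and 322 and 178 in cortices. Both cortices were lower, and the log2 change was -0.87 ± 0.49 (adjusted p = 0.498). The brighter pola2.L probe set had 9578 and 7501 in whole oocytes and 6065 and 5485 in cortices, likewise without overlap (-0.55 ± 0.31).

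Other subunits of these enzymes lay in a narrow band. The catalytic subunit pola1.S was at -0.64, the primase subunits prim1.S and prim2.S at -0.62 and -0.48, the delta subunits pold2.L and pold3.L at -0.68 and -0.53, and the epsilon subunits pole2.L and pole3.L at -0.47 and -0.45. The changes of pold2.L, pold3.L, pole2.L and pole3.L were nearly the same in both females (-0.69 and -0.67, -0.54 and -0.51, -0.47 and -0.47, -0.48 and -0.41). pola1.S, prim1.S and prim2.S were near 0 in the first female (-0.027, -0.14 and -0.091) and low in the second (-1.26, -1.11 and -0.86). pole4.L, which pairs with Pole3 in a histone-fold dimer, was the exception. It had 3749 and 3861 in whole oocytes and 3929 and 3867 in cortices, the cortices just above the whole oocytes (log2 change 0.035, interval -0.70 to 0.77). The brighter probe set of pole.L, the catalytic subunit, which the choice by symbol leaves out, was at -0.30 ± 0.35 (adjusted p = 0.727). A dimmer pole.L probe set, below the signal limit and not tested, lay the other way, with 27.61 and 10.02 in whole oocytes and 139 and 93.6 in cortices.

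The sliding clamp PCNA holds polymerases on DNA, and replication factor C loads it. Of 7 probe sets 6 had log2 changes below 0, where 65.7% of all tested probe sets did, and none was called (lowest adjusted p = 0.403). pcna.L had 21658 and 23368 in whole oocytes and 15398 and 22952 in cortices, and only the first cortex stood apart (log2 change -0.26, interval -0.92 to 0.41; -0.73 with quantile normalization). In pcna.S both cortices were below both whole oocytes, the second by little, with 5969 and 4725 in whole oocytes and 2846 and 4700 in cortices (log2 change -0.54 ± 0.37; -1.06 in the first female and -0.0075 in the second). It was the 1 replication probe set at least 2-fold lower in the first female, or 1.92%, where 2.79% of all tested probe sets were. The probe set shared by both pcna copies had 24591 and 21668 in whole oocytes and 21373 and 21971 in cortices (log2 change -0.091).

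The probe sets of rfc3.L set both ends of the range of clamp and loader. rfc2.L, rfc4.L and rfc5.L were at -0.43, -0.33 and -0.55. Those of rfc3.L lay on opposite sides of 0. The brighter had 3671 and 4678 in whole oocytes and 3880 and 863 in cortices, so 3 arrays were close and cortex replicate 2 was far below them (log2 change -1.17 ± 0.63, adjusted p = 0.486). The dimmer had 2357 and 2239 in whole oocytes and 3337 and 4815 in cortices, both cortices above both whole oocytes (log2 change 0.80 ± 0.35, adjusted p = 0.403). The difference between them was -1.96 ± 0.91, chosen for a test after it was seen, and did not pass by limma over 716 symbols with more than 1 tested probe set (adjusted p = 0.996). No direction is given for rfc3.L.

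Replication protein A covers single-stranded DNA at the fork, and all 3 of its subunits were below 0, where 65.7% of all tested probe sets were. rpa3.S had 2300 and 2236 in whole oocytes and 1315 and 1500 in cortices. The groups did not overlap (log2 change -0.68 ± 0.35, adjusted p = 0.467). rpa2.L, at -0.36 ± 0.33, did not overlap either. The largest subunit, rpa1.L, had 615 and 361 in whole oocytes and 497 and 361 in cortices. Its second-female arrays were equal to within 1 unit of signal, and its interval was wide (log2 change -0.15, -1.23 to 0.93).

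Fen1 trims the flaps of Okazaki fragments and DNA ligase 1 seals them. fen1.L had 2361 and 1762 in whole oocytes and 1665 and 1153 in cortices, below both whole oocytes (log2 change -0.55 ± 0.38, adjusted p = 0.564). fen1.S had 862 and 419 in whole oocytes and 737 and 639 in cortices, with the cortices between the whole oocyte values (log2 change 0.18 ± 0.47). lig1.L had 589 and 542 in whole oocytes and 588 and 442 in cortices. Its arrays of the first female were alike and its change was -0.14 (interval -1.10 to 0.82).

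Ribonucleotide reductase makes the deoxyribonucleotides that replication consumes, from a large subunit, Rrm1, and a small one, Rrm2 or the p53-inducible Rrm2b. Its 5 probe sets had a median log2 change of 0.0021 (-0.45 with quantile normalization), and again none was called (lowest adjusted p = 0.468). The small subunit genes spread most. rrm2.1.L had 16090 and 22558 in whole oocytes and 17412 and 4713 in cortices, where only cortex replicate 2 was low (log2 change -1.07 ± 0.55; 0.11 in the first female and -2.25 in the second). rrm2b.S had 9434 and 10541 in whole oocytes and 9384 and 25105 in cortices, where only cortex replicate 2 was high (log2 change 0.62 ± 0.45; -0.0076 and 1.25). rrm2.2.L had 19857 and 22660 in whole oocytes and 17323 and 26356 in cortices, which overlapped (log2 change 0.011, interval -0.67 to 0.69). The rrm1.L probe sets were at -0.44 and 0.0021. The first of them is of a kind that matches several transcripts, and in whole oocytes it already differed between replicates (18550 and 9858).

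Cortices varied more between replicate arrays than whole oocytes did. With 1 array per female and group, differences between females cannot be told apart from those of dissection or array. The median absolute difference between replicates was 0.26 in whole oocytes and 0.51 in cortices on the log2 scale, beside 0.34 and 0.50 for all tested probe sets. A 2-fold difference between replicates was seen for 1 of the 52 in whole oocytes and for 9 in cortices, where 5.61% and 19.3% of all tested probe sets had one. In the second female 8 replication probe sets were at least 2-fold lower in the cortex (orc4.L, the brighter rfc3.L, rrm2.1.L, prim1.S, mcm2.L, mcm5.L, the dimmer pola2.L and pola1.S), or 15.4%, against 10.4% of all. In the same female 2 were at least 2-fold higher (the dimmer rfc3.L and rrm2b.S), or 3.85%, against 9.37%, while 0 were so in the first female, against 9.49%. The lowest of the 4 arrays was cortex replicate 1 for 23 probe sets (44.2%) and cortex replicate 2 for 22 (42.3%), against 33.6% and 35.7% of all tested probe sets. A whole oocyte array was the lowest for 2 (replicate 1) and 5 (replicate 2), or 3.85% and 9.62%, against 15.4% and 15.3%.

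**Figure D4:**
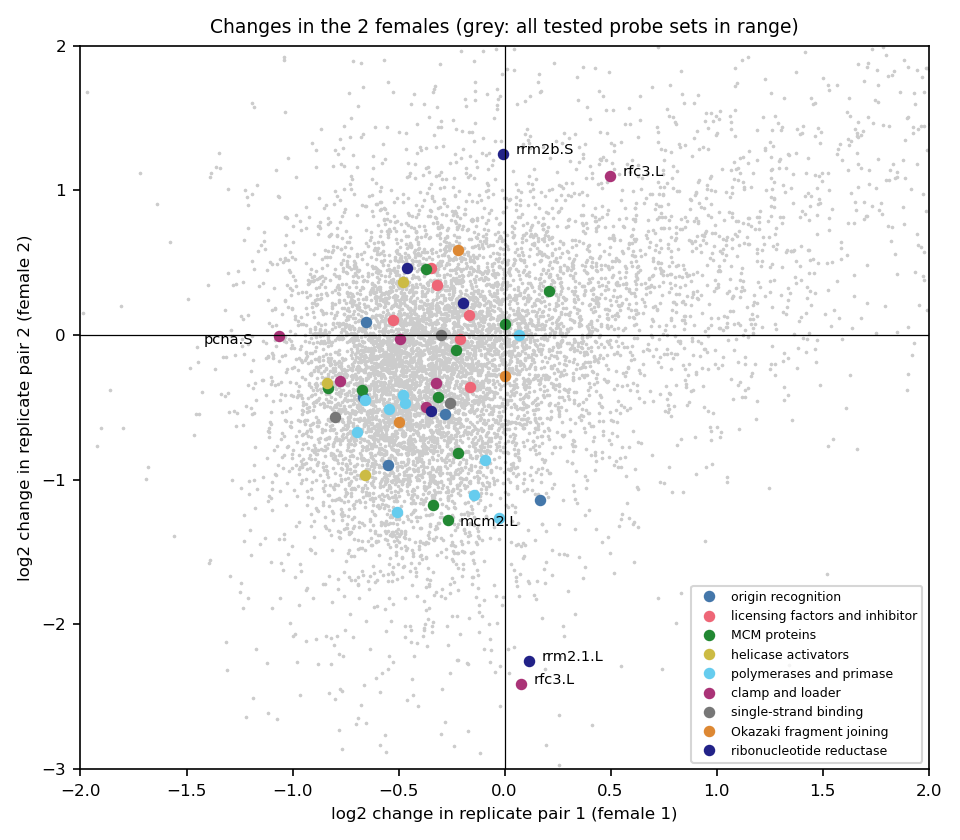
Log2 change in the first female (horizontal) against the second female (vertical) for the 52 replication probe sets, coloured by role, over all tested probe sets within the axes (grey). Of the coloured points 33 lie below 0 in both females, and rrm2.1.L and the brighter rfc3.L probe set lie near 0 in the first female and below -2 in the second.

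Which array stood for the cortex decided whether any replication gene was called. Without vegetal cortex replicate 1, limma called 5 of the 52 as lower, or 9.62%, where it called 7.24% of all tested probe sets lower, and 1 as higher, or 1.92%, where it called 7.5% higher. The 5 were the brighter rfc3.L (-2.24), rrm2.1.L (-2.01), mcm2.L (-1.19), mcm5.L (-1.17) and the rrm1.L probe set with the lower change (-0.98), and the 1 was rrm2b.S (1.33). There the spread is that of whole oocytes alone, and the lone cortex array is assumed to vary as they do. Without vegetal cortex replicate 2, 0 of the 52 were called, where 7.17% of all were called higher and 0.409% lower, and the same 6 probe sets lay between -0.35 and 0.11. Without whole oocyte replicate 1 or 2, 0 of the 52 were called, where 1.34% and 1.51% of all were called higher. With the replicate number as a block 0 of the 52 were called, where 3.82% of all were called higher.

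**Figure D5:**
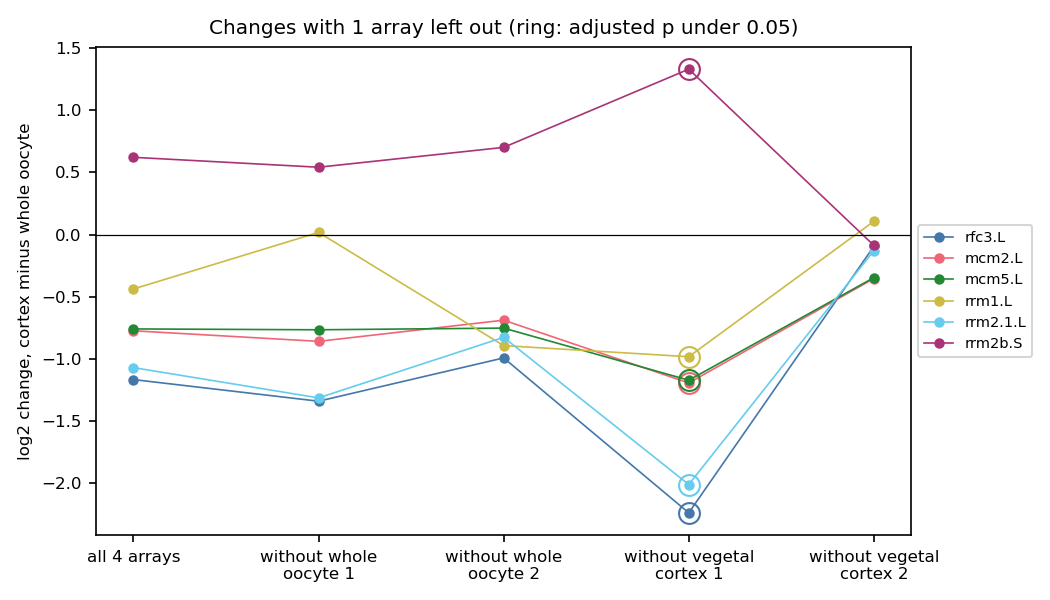
Log2 change (vegetal cortex minus whole oocyte) of the 6 replication probe sets that passed in any fit, with all 4 arrays and with each array left out; lines join the values of a probe set and rings mark an adjusted p under 0.05. All rings stand where vegetal cortex replicate 1 was left out, and without vegetal cortex replicate 2 the 6 values draw together between -0.35 and 0.11.

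Both homeologous copies were tested for 6 replication genes. The change of the .L copy minus that of the .S copy was tested by limma over 636 such pairs, of which 0.943% were called, and 0 of the 6 were. The largest difference was that of fen1, at -0.73 ± 0.48 (interval -1.84 to 0.37, adjusted p = 0.917). pcna was at 0.28 (interval -0.48 to 1.03) and mcm7 at 0.21 (-0.61 to 1.04). cdc6, mcm4 and gmnn were at 0.13, 0.083 and -0.074, and only the interval of gmnn (-0.76 to 0.61) lay wholly within a 2-fold difference. Binding of one copy's RNA to the other copy's probes was not tested.

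The 8 replication probe sets below the signal limit had single-array signals between 8.12 and 362.9 and were not tested. They belonged to orc5.L, orc6.L, mcm5.S, gins2.L, gins4.L, mcm6.2.L and mcm6.2.S, the last with a pair of probe sets. Nearest to the limit were gins2.L, untested with a mean of 225.8, and the dimmer pola2.L, tested with a mean of 351.8. mcm6.2.L and mcm6.2.S, which the gene table lists under the older name zmcm6, encode the zygotic form of Mcm6 in Xenopus. mcm6.2.L had 108 and 55.6 in whole oocytes and 14.0 and 126 in cortices, with no order between the groups. The probe sets of mcm6.2.S had 69.0 and 58.3, and 9.32 and 17.5, in whole oocytes, and 74.0 and 108, and 13.3 and 63.1, in cortices. mcm5.S was lower in both cortices (77.8 and 63.5) than in both whole oocytes (175 and 163) and was not tested. The dimmer orc6.L probe set was likewise lower in both cortices (178 and 70.2) than in both whole oocytes (347 and 249).

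Other genes of the replication pathway, listed with earlier results of these data known, gave 1 call. The called gene was chek1.S, a kinase that restrains origin firing and entry into mitosis while DNA is being copied. Both tested probe sets of chek1.S are of a kind that matches several transcripts. The brighter had 7046 and 5551 in whole oocytes and 27165 and 31089 in cortices. Both cortices were far above both whole oocytes (log2 change 2.21 ± 0.29, a ratio of 4.64, adjusted p = 0.00507). The call was also made in each of the 11 alternative fits, with changes from 1.92 (quantile normalization) to 2.38 (without whole oocyte replicate 1) and adjusted p up to 0.039. A dimmer chek1.S probe set had 965 and 508 in whole oocytes and 4061 and 1795 in cortices (log2 change 1.92 ± 0.51, adjusted p = 0.115). Blocking on the female, it was called (adjusted p = 0.0253), as it was without vegetal cortex replicate 1 or 2 (adjusted p = 0.0396 and 3.8e-06), and its adjusted p reached 0.76 without whole oocyte replicate 2. Of 16 tested checkpoint probe sets 1 was called higher and 0 lower, where 3.31% of all tested probe sets were called higher and 0% lower. Log2 changes below 0 were found for 12 of the 16, where 65.7% of all were below 0. The median of the 16 was -0.33, beside -0.20 for all. The lowest was rad17.L, which loads a checkpoint clamp, with a ratio of 0.499 (SE 0.49 on the log2 scale, adjusted p = 0.449).

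In the other lists 0 of 21 origin firing and fork probe sets, 0 of 25 for cohesion and alternative clamp loaders, 0 of 12 for nucleotide supply, 0 of 32 for histone supply and chromatin assembly and 0 of 9 for topoisomerases and DNA ends were called in either direction, where 3.31% of all tested probe sets were called higher and 0% lower. Their median log2 changes were -0.30, -0.10, -0.53, -0.24 and -0.42, beside -0.20 for all. Some of these medians rest on single arrays or on the scaling. The median of the cohesion list was 0.21, that of the fork list -0.16 and that of the histone list -0.15 without vegetal cortex replicate 1. Without whole oocyte replicate 2 the fork list was also at -0.16. Without vegetal cortex replicate 2 the cohesion list was at -0.26 and the topoisomerase list at -0.18, and with quantile normalization the histone list was at -0.47 and the cohesion list at -0.038. Calls were made in 5 lists without vegetal cortex replicate 1, where 7.5% of all tested probe sets were called higher and 7.24% lower. These were 1 higher and 3 lower for the fork, 4 higher and 0 lower for cohesion, 1 higher and 2 lower for nucleotide supply, 1 higher and 3 lower for histone supply, and 2 higher and 1 lower for the checkpoint. Without vegetal cortex replicate 2, where 7.17% were called higher and 0.409% lower, cohesion had 1 higher and the checkpoint 2 higher and 1 lower. dtl.L, which recruits a ubiquitin ligase to Cdt1, was the highest fork gene, with 1123 and 956 in whole oocytes and 2461 and 3618 in cortices. Both cortices were above both whole oocytes (log2 change 1.51 ± 0.38, adjusted p = 0.0892). tipin.S, of the fork protection complex, was the lowest, with 4297 and 3003 in whole oocytes and 1891 and 1297 in cortices, with nearly the same log2 change in both females (-1.18 and -1.20, adjusted p = 0.225). pds5a.S, a regulator of cohesin, had 258 and 377 in whole oocytes and 1794 and 960 in cortices (2.01 ± 0.47, adjusted p = 0.0667), and dscc1.L, of an alternative clamp loader, was lowest in that list at -0.91 ± 0.49.

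Among the remaining extremes npm3.S, of the nucleoplasmin family of histone chaperones, was at -1.53 ± 0.71, with 771 and 837 in whole oocytes and 623 and 108 in cortices, of which only cortex replicate 2 was far below. dctpp1.L, which removes unwanted nucleotides, had 14371 and 13285 in whole oocytes and 12143 and 4487 in cortices, again low in cortex replicate 2 alone (-0.90 ± 0.45). The highest members of these lists were uhrf1.S (0.35), ctps1.L (0.57) and parp1.L (0.062), and top3b.L, a topoisomerase, was the lowest of its list at -0.60 ± 0.34.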

How the data were processed

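RNA of 2 whole oocyte and 2 vegetal cortex samples (100 ng each) was amplified and hybridized to 1-colour arrays, per the labels' protocols. The authors deposited linear intensity values. The submitters' processing notes name MAS5, with no version in the sources used here. The trimmed mean (2% at each end) was 1500.1 or 1500.2 on every array, so the authors' scaling was kept. Detection calls were not used here. No 2 arrays held identical values.

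Groups came from titles; in the descriptions, replicate 2 of the cortex carries the numbers of replicate 1. An offset of 19.11, the 10th percentile of the signals of 15491 non-control probe sets on all 4 arrays, was added before log2. This understates changes of dim probe sets. Probe sets at or above the 40th percentile of mean signal (271.5) were tested with limma 3.58.1 in R 4.3.3 (lmFit, eBayes with a trend on intensity; residual degrees of freedom 2, prior 6.22). Tests were two-sided, with Benjamini-Hochberg adjustment over all 9295 and a threshold of 0.05. Standard errors, 95% intervals and adjusted p-values all come from limma. The main fit had no term for the replicate number, so it treated the arrays as unpaired. Only the fit with the replicate block pairs them. The step was tested on simulated data.

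Symbols are those of the platform annotation; the identifiers of all 60 replication probe sets were found in a gene table of the Xenopus_laevis_v10.1 assembly, with the same symbol. Copies and probe sets of a symbol were compared by limma on per-array differences, the brightest probe set of each copy, or the brightest and next brightest of a symbol. The replicate number, taken from the titles, was assumed to stand for the female. Replicate differences of whole oocytes and cortices correlated at 0.35 across all tested probe sets and at 0.19 across the tested replication probe sets. The pairing itself was not tested. The members and lists were chosen with earlier results of these data known. The text gives every array for the highest and lowest probe set of each role, for the brightest of mcm2 to mcm7, pcna, gmnn, cdt1, cdc6, cdc45, fen1 and lig1, and for the 3 gene pairs with the largest difference between copies; others given by array were chosen after their values were seen. Alternatives were the offset, the signal limit, quantile normalization, the trend, the replicate block and leaving out each array. Listed genes without a probe set were not analysed here.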

Additional observations from a re-analysis of the deposited data

How the results depend on the processing

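With 2 arrays per group the number of arrays limits every test. Leaving out 1 array at a time gave 0 to 6 replication calls, 125 to 1370 calls over all tested probe sets, a replication median between -0.43 and -0.32, and 0 to 14 intervals within a 2-fold change; the extremes are named in the report. Quantile normalization gave 9 such intervals in place of 14, where 13.0% of all tested probe sets had one in place of 12.9%. It moved mcm7.L to -0.014, gmnn.S to -0.19, gmnn.L to -0.50, pcna.L to -0.73, the brighter cdt1.L to -0.51, cdc6.S to -0.33, cdc6.L to -0.15 and rrm2.2.L to -0.45. The replicate block, which pairs arrays by replicate number, gave 0 replication calls, 17 such intervals and 355 calls in all. With the block 27.5% of all tested probe sets had such an interval. Among the named genes it changed the call of the dimmer chek1.S probe set alone. Of the 52 replication probe sets 19 had log2 changes on both sides of 0 over the fits that leave out 1 array. These, and 2 other named genes, ranged from -0.24 to 0.32 for mcm7.S, -0.55 to 0.029 for pcna.L, -0.52 to 0.22 for rpa1.L, -0.087 to 1.33 for rrm2b.S, -0.43 to 0.094 for mcm3.L, -0.33 to 0.44 for gmnn.S, -0.28 to 0.25 for gmnn.L, -0.32 to 0.69 for fen1.S, -0.42 to 0.30 for cdc45.L, -0.34 to 0.057 for lig1.L, -0.99 to 0.17 for orc3.S, -0.98 to 0.0086 for orc4.L, -1.01 to 0.057 for prim2.S, -0.38 to 0.41 for cdc6.L, -0.72 to 0.30 for the dimmer cdt1.L, -0.98 to 0.11 and -0.34 to 0.35 for rrm1.L, -0.29 to 0.31 for rrm2.2.L, -0.047 to 0.13 for mcm8.L, -0.11 to 0.23 for parp1.L and -0.28 to 1.43 for ctps1.L. The offset, the signal limit and the trend left the replication calls at 0, with 11 to 15 such intervals. In these fits 9.25% to 17.9% of all tested probe sets had one.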
